A study of Mus musculus with 2 samples.

Results

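White adipocytes store triglyceride in a lipid droplet that fills most of the cell and act as an endocrine organ. The nuclear receptor PPARG, together with C/EBP factors, switches on the genes that make a fat cell, among them secreted hormones, a fatty acid carrier and the proteins that coat or enlarge the droplet. Under the skin of a mouse such cells form the subcutaneous fat layer, and they are also one of the mesodermal tissues that a teratoma, a tumour of mixed differentiated tissue grown from pluripotent cells, can contain.

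The genes described are 10 fat cell genes, chosen by name with earlier results of these data known. They include the hormones and secreted proteins Adipoq, Retn, Lep and Cfd, and the fatty acid handling genes Fabp4 and Lpl. The regulator Pparg and the droplet genes Plin1, Cidec and Cidea complete the set. Every probe set that the platform annotation gives to 1 of these genes alone was taken, which yielded 12 probe sets of 8 genes, out of 20380 such probe sets of 12393 genes. Adipoq, Retn, Lep, Pparg, Cidec and Cidea had 1 probe set each, Lpl had 2 and Fabp4 had 4. Cfd and Plin1 had none and were not analysed here.

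A pair of tumour RNA pools was compared, each on 1 Affymetrix mouse array. The ES tumours were teratomas of C57BL/6 (B6) embryonic stem (ES) cells. The EiPS tumours, described by the submitters as regressing, were teratomas of EiPS cells, a line of induced pluripotent cells of the same strain that 1 label also calls 1E12. All tumours grew subcutaneously in male B6 mice whose age is not given, were removed at week 6, and were pooled by 2 per array; each group rests on 1 cell line. Cells and hosts are both B6, so tumour RNA and host RNA cannot be told apart, and in bulk tissue fewer cells of a type and less RNA per cell cannot be told apart either. With 1 array per group no difference was tested, and every value compares these 2 arrays.

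Values are MAS5 signals on a linear scale, which both arrays carry scaled to the same trimmed mean (500.2). Signals below 25.8, the level under which 90% of the signals of 71 probe sets for olfactory, taste and vomeronasal receptors lay, were treated as not measured. Differences are log2 signals of the EiPS tumours minus those of the ES tumours, and where 1 of the signals was too low it was replaced by the floor and the fold is written "at least". Of the probe sets with 1 gene, 81.1% exceeded the floor for the ES tumours and 83.6% for the EiPS tumours. The 3' to 5' signal ratios of the control transcripts, which rise when RNA is degraded, were 1.35 and 1.49 for Actb and 0.829 and 0.798 for Gapdh, for ES and EiPS tumours. The only gauge of measurement noise was the SD of the differences between probe sets of 1 gene, 0.40 on the log2 scale over 3805 genes (0.49 where the mean signal was under 100, 0.41 from 100 to 1000 and 0.29 above). It leaves out the variation between tumours, between arrays and in labelling.

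The hormone genes Adipoq and Retn, the carrier gene Fabp4 and the lipase gene Lpl had higher signals in the EiPS tumours. Cidea did not differ by more than the noise, and leptin was measured on neither array. Adipoq was at least 11.3-fold higher, Fabp4 7.90-fold by its brightest probe set, Retn at least 5.68-fold and Lpl 2.01-fold. Pparg and Cidec were measured in the EiPS tumours only, close to the floor. Among the 10 probe sets open to comparison, 5 were higher by 2-fold or more in the EiPS tumours, 4 of them by 4-fold or more, and none was lower by 2-fold. Across all 17519 probe sets compared, 6.19% were higher by 2-fold or more, 0.93% by 4-fold or more, and 3.25% were lower by 2-fold or more. In the direction of the difference, 9 of the 10 were higher, against 54.9% of all probe sets. Their median difference was 0.95, against 0.06 over all probe sets. Of these 10 probe sets, 5 passed the floor through the EiPS tumours alone and so had to be higher there, which makes these counts and the median a description only.

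**Figure D1:**
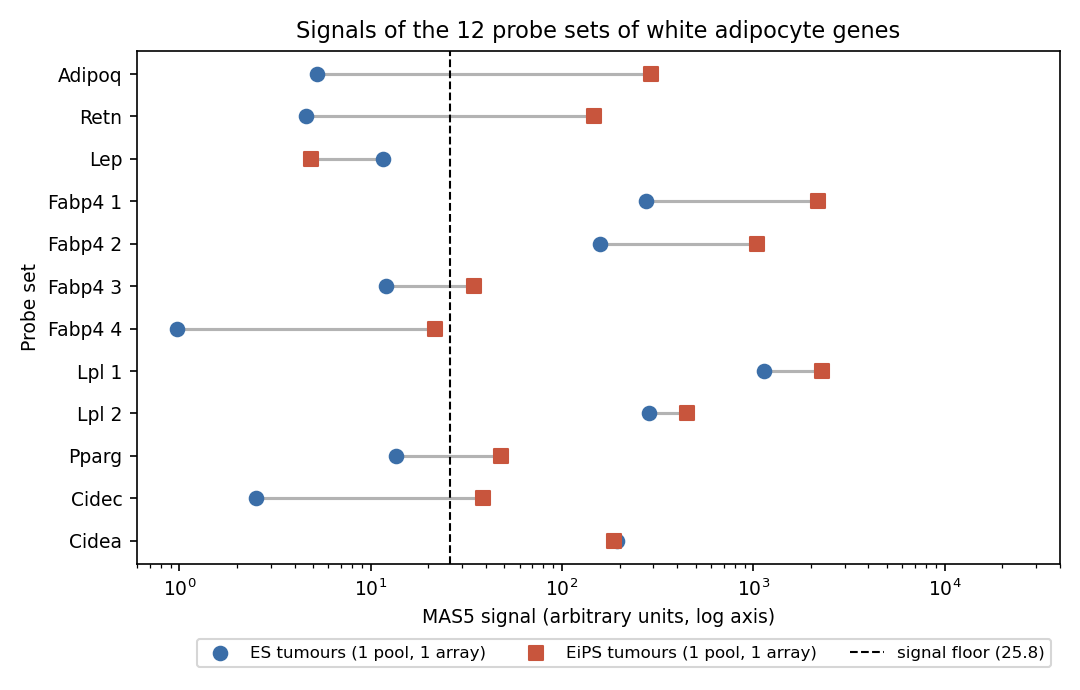
MAS5 signal (log axis) of each probe set of the fat cell genes, with a circle for the ES tumours, a square for the EiPS tumours, 1 array each, and a dashed line at the signal floor of 25.8. Numbers after Fabp4 and Lpl tell their probe sets apart, from brightest to dimmest. Adipoq and Retn cross from far below the floor to well above it, both bright Fabp4 probe sets are higher in the EiPS tumours, the squares of Pparg and Cidec lie just over the floor, Lep stays under it on both arrays, and the points of Cidea almost coincide.

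Adipoq encodes adiponectin, a hormone that fat cells secrete in large amounts and that raises insulin sensitivity, and it is among the most specific markers of a mature fat cell. Its probe set (1422651_at) read 5.27 for the ES tumours and 291 for the EiPS tumours. The first value is under the floor and the second far above it, so the transcript was measured in the EiPS tumours only. The bound on the difference was 3.49 on the log2 scale.

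Retn encodes resistin, a cysteine-rich hormone that in mice is made chiefly by white fat cells. Its probe set (1449182_at) read 4.58 for the ES tumours and 147 for the EiPS tumours. As for Adipoq, only the EiPS tumours was above the floor. The bound on the difference was 2.50 on the log2 scale. Both bounds depend on where the floor is set. When the floor was raised to 49.2, the 98th percentile of the receptor signals, they were 2.57 for Adipoq and 1.58 for Retn, and with a floor of 100 they were 1.54 and 0.55, so that Retn no longer reached 2-fold.

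Lep encodes leptin, the satiety hormone whose expression follows the size of the fat store. Its probe set (1422582_at) read 11.6 for the ES tumours and 4.88 for the EiPS tumours. Both are under the floor, so leptin was not measured on either array and no fold is given. Leptin therefore did not accompany adiponectin and resistin above the floor in the EiPS tumours.

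The start regions of the hormone genes Adipoq, Retn and Lep and of Pparg are shown. Adipoq had the largest difference of the members with the floor of 25.8, a bound of 3.49. With the floor at the 98th percentile it was 2.57, below the 2.98 of the brightest Fabp4 probe set. Retn was above the floor in the EiPS tumours only, and Lep was measured on neither array. Pparg is the factor held to switch on the fat cell programme. Fabp4, whose bright probe sets both differed by more than the bound of Retn, had no window in the source used, and nor had Lpl. The windows of Cfd, Plin1 and Cidec were searched but are not printed. No window of Cidea was searched, since a chromosome filter was applied to the members. Each sequence runs from 250 bases before to 50 bases after an annotated start, 5' to 3' on the gene's own strand (plus for each), from RefSeq on GRCm38.p6. Capitals mark every match, on either strand, to AGGTCA, the half-site bound by nuclear receptors, or to TTNNGNAA, a loose core of the C/EBP motif. The windows lie at chr16:23146286-23146585 for Adipoq, chr8:3655520-3655819 for Retn, chr6:29059971-29060270 for Lep and chr6:115421816-115422115 for the most downstream of 3 annotated starts of Pparg; in mice the fat cell isoform, PPARG2, is made from a downstream start.
Adipoq: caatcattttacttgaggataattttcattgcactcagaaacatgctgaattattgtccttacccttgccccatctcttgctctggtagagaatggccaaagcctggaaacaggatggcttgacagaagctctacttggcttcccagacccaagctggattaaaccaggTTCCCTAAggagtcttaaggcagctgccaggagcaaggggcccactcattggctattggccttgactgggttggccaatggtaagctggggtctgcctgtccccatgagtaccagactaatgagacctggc
Retn: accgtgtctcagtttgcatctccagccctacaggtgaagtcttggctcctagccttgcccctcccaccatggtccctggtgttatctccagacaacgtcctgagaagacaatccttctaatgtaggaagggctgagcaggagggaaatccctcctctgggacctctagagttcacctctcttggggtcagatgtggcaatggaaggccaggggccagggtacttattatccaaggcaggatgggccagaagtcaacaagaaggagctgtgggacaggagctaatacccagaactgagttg
Lep: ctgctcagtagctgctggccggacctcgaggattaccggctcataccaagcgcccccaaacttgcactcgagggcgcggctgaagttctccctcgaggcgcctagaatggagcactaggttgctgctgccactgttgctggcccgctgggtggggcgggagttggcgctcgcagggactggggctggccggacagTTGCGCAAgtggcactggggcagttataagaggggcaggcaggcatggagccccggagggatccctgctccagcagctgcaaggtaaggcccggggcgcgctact
Pparg: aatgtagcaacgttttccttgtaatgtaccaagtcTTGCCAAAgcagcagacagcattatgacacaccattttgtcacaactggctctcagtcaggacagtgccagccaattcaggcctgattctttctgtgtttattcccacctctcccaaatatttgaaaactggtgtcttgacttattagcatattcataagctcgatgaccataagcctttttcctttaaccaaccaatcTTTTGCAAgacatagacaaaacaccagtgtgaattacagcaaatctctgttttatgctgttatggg

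The Adipoq window held 1 C/EBP core, from -81 to -74 relative to the start, and no half-site. The Retn window held neither motif. In the Lep window the core was the palindrome TTGCGCAA, from -55 to -48. The downstream Pparg window held 2 cores, from -215 to -208 and from -16 to -9, and the other 2 Pparg windows held 1 half-site each and no core. In all, 10 windows of 7 of the 10 genes were searched; a core was found in 6 of these windows and a half-site in 2. Among all 32851 windows of 300 bases in the table, 40.7% held a core and 16.3% a half-site. The full PPARG motif, AGGTCANAGGTCA, which is 2 half-sites with 1 base between them, was in none of the 10 windows and in 13 of all windows (0.0396%). These matches are letters in a short window and say nothing about binding; Adipoq, measured in the EiPS tumours, and Lep, not measured, each had 1 core.

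Fabp4 encodes the fatty acid binding protein of fat cells, a small cytoplasmic carrier also made by macrophages and by the endothelium of small vessels. Its brightest probe set (1417023_a_at) read 274 for the ES tumours and 2167 for the EiPS tumours. The next brightest (1451263_a_at) had 159 and 1041. Both are well above the floor on both arrays, and by the suffix of their names both match several transcripts of the gene. Their differences of 2.98 and 2.71 on the log2 scale, or 7.90-fold and 6.55-fold, lie 0.27 apart, within the noise between probe sets of 1 gene, and were the 29th and 46th highest of all probe sets. Neither depends on the floor. Another probe set (1425809_at) had signals of 11.96 and 34.7, at least 1.34-fold higher in the EiPS tumours. The last (1424155_at) had 0.975 and 21.8, under the floor in both, and is not compared. Only the 2 bright probe sets therefore give a direction and a size.

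Lpl encodes lipoprotein lipase, which releases fatty acids from circulating lipoproteins and is made in fat, skeletal and heart muscle and macrophages. Its brightest probe set (1415904_at) read 1134 for the ES tumours and 2283 for the EiPS tumours. The other (1431056_a_at) had 286 and 452. Lpl was thus measured clearly on both arrays, unlike the fat cell hormones. The differences were 1.01 and 0.66 on the log2 scale, or 2.01-fold and 1.58-fold, and 6.06% and 13.1% of all probe sets had a higher one. The first sits at the 2-fold line. It was 0.88 when the medians of the arrays were set equal and 0.97 with log2(signal + 64).

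Pparg encodes the nuclear receptor that is required for fat cells to form, and which macrophages and several epithelia also use. Its probe set (1420715_a_at) read 13.6 for the ES tumours and 48.1 for the EiPS tumours. Only the second is above the floor, and not by far. The bound was at least 1.86-fold, 0.90 on the log2 scale. Cidec encodes a protein that fuses small droplets into the single large droplet of white fat cells. Its probe set (1452260_at) had signals of 2.51 and 38.4, at least 1.49-fold higher in the EiPS tumours. Neither gene reached the 98th percentile of the receptor signals (49.2) on either array, so with a floor there neither was measured.

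Cidea encodes a droplet protein of the same family, best known from brown fat in mice, and also made in sebaceous glands. Its probe set (1417956_at) read 195 for the ES tumours and 186 for the EiPS tumours. Both signals were well above the floor and nearly equal, with a difference of -0.06 on the log2 scale. Under the other scalings the difference lay between -0.19 and -0.15. Cidea was thus the only one of the 10 probe sets compared with a lower signal in the EiPS tumours, by less than the noise.

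**Figure D2:**
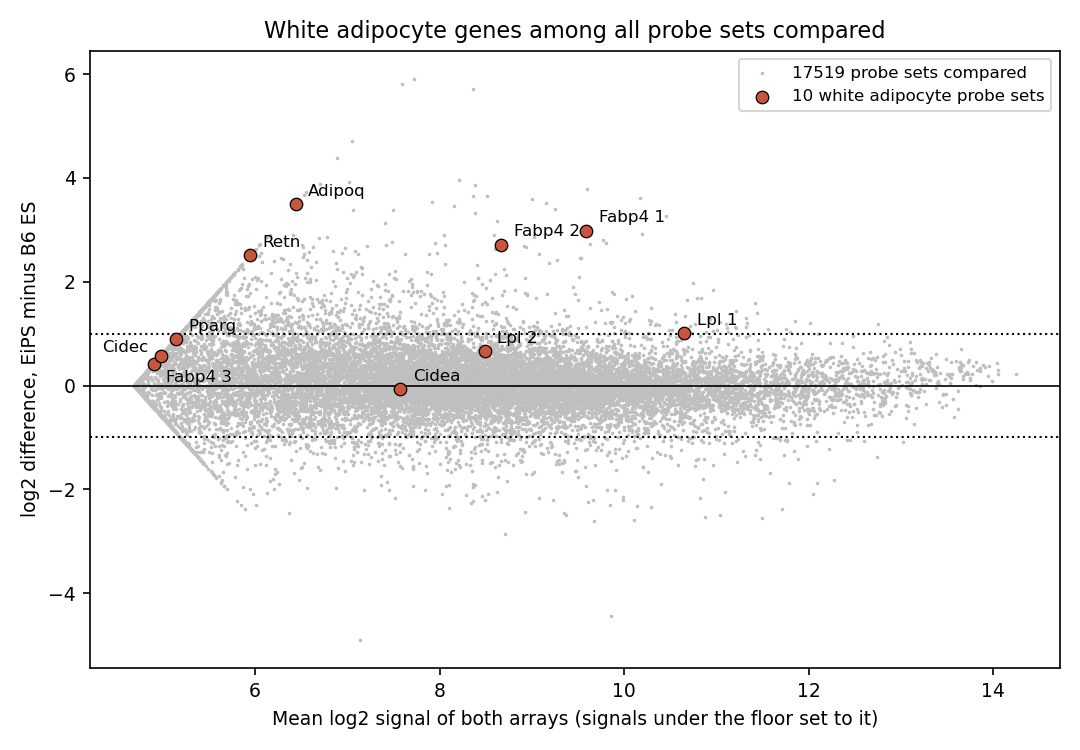
Difference in log2 signal (EiPS minus B6 ES) against the mean log2 signal of both arrays for the 17519 probe sets compared (grey), with the 10 fat cell probe sets in red; dotted lines mark 2-fold. Both bright Fabp4 probe sets stand near the upper edge of the cloud, Lpl lies at the 2-fold line and Cidea lies at 0. Adipoq, Retn, Pparg, Cidec and Fabp4 3 lie on the slanted left edge, where 1 signal is at the floor, so their heights are bounds.

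Other genes of fat tissue went both ways. In 7 lists that held 101 other genes of fat tissue, 82 genes could be compared, each by its brightest probe set. In the EiPS tumours 10 of them were higher by 2-fold or more and 6 were lower by as much. Over all 10962 genes compared, 5.79% were higher by 2-fold or more and 3.05% lower by as much, and the median difference was 0.07; by any amount, 56.2% were higher and 43.8% lower. The list medians lay between -0.19 and 0.29. They are not set against the white adipocyte genes, since of the 7 of those that were measured 4 (Adipoq, Retn, Pparg and Cidec) passed the floor in the EiPS tumours only and could not have been lower there. Medians so close to 0 have no firm sign: that of fatty acid uptake and triglyceride synthesis stayed above 0 under all 10 alternative floors, scalings and probe set choices, and those of the other 6 fat lists changed sign under 1 to 3 of them.

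Of 15 genes of the lipid droplet and of lipolysis, 6 were higher and 9 lower, with a median of -0.13. Plin2, which coats droplets in most cell types, had signals of 522 and 1134 for ES and EiPS tumours, 2.17-fold higher in the latter. Hilpda, a droplet protein induced by low oxygen, was 2.21-fold higher. Fitm1, a droplet formation gene mainly of muscle, had signals of 800 and 224, 3.57-fold lower, and Plin5, the perilipin of oxidative tissues, was at least 2.18-fold lower. The lipases that empty the droplet of fat cells, named here for their role after their values were seen, differed little: Lipe, hormone-sensitive lipase, by 0.40 and Pnpla2, adipose triglyceride lipase, by -0.13 on the log2 scale.

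Of 16 genes of fatty acid uptake and triglyceride synthesis, 11 were higher and 5 lower, with a median of 0.29. Thrsp, which promotes fatty acid synthesis in fat and liver, had signals of 183 and 817, 4.46-fold higher in the EiPS tumours, and its other probe set differed by 1.15 on the log2 scale. Angptl4, a secreted inhibitor of lipoprotein lipase, was 2.38-fold higher. Pck1, an enzyme that fat cells use to make the glycerol phosphate for triglyceride, was 1.83-fold higher from signals near the floor (28.1 and 51.2). Slc2a4, the insulin-responsive glucose transporter of fat and muscle, had signals of 534 and 142 and was 3.77-fold lower. Aqp7, the glycerol channel of fat cells, read 4.57 and 10.1, under the floor on both arrays.

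Among 16 adipogenic transcription factors, 9 were higher and 7 lower, with a median of 0.08. Cebpd, an early factor of fat cell differentiation, had signals of 384 and 1297, 3.38-fold higher in the EiPS tumours, but its other probe set differed by -0.19 on the log2 scale. Ebf1 was 2.20-fold higher, and Nr1h3, the sterol receptor LXR alpha, 1.85-fold higher. Stat5a, which acts downstream of growth hormone in fat cells, was 1.75-fold lower by its brightest probe set, and its other one differed by -0.32 on the log2 scale. Cebpa, the partner of PPARG in mature fat cells (named after its value was seen), had signals of 157 and 249.4, 1.59-fold higher.

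Other secreted factors were higher in 4 of 9 genes and lower in 5, with a median of -0.12. That median is the bound of Nrg4 (named after its value was seen), which had signals of 28.0 and 1.22. Nrg4 was just above the floor in the ES tumours only and so could only count as lower. Itln1, an intestinal and fat lectin, was 2.30-fold higher in the EiPS tumours, Rbp4, the plasma carrier of retinol, 2.005-fold, and Apln, a peptide hormone of fat and endothelium, 1.84-fold. Retnla, a relative of resistin made by fat and by alternatively activated macrophages, had signals of 143 and 29.0, 4.93-fold lower, the second signal close to the floor. Retn and Retnla thus had differences of opposite sign, that of Retn being a bound. Among 9 receptors for these hormones and for lipolytic signals 4 were higher and 5 lower, with a median of -0.19, and the 8 that were above the floor on both arrays all differed by less than 2-fold. Cdh13, which binds adiponectin on vessels and muscle, was 1.79-fold lower and Ptger3, a prostaglandin receptor of fat cells, 1.67-fold lower. Adipor1, an adiponectin receptor, was 1.33-fold lower by its brightest probe set, with the others ranging up to 0.06 on the log2 scale. The insulin receptor gene Insr was at least 1.31-fold higher by its brightest probe set, while its second one differed by -0.15 (log2).

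Genes of brown and beige fat were higher in 3 of 8 and lower in 5, with a median of -0.15. Ucp1, the uncoupling protein that defines brown fat, read 2.93 and 6.25, under the floor on both arrays, and Elovl3 read 22.7 and 14.5, also under it. Cox8b and Cox7a1, respiratory chain subunits of brown fat that heart and skeletal muscle also use, were 3.09-fold and 2.04-fold lower in the EiPS tumours. Lhx8, a homeobox factor used as a brown fat marker and also active in forebrain neurons, was at least 4.95-fold higher, with signals of 1.73 and 128. Dio2, the deiodinase that activates thyroid hormone, was 1.66-fold higher. Among 9 markers of fat cell precursors, 7 were higher and 2 lower, with a median of 0.10. Icam1 was 2.12-fold higher, Pdgfrb 1.86-fold, Cd24a 1.30-fold and Dlk1, which holds precursors undifferentiated, 1.28-fold, with Dlk1 signals of 4878 and 6225, while Pdgfra was 1.27-fold lower. The compared probe sets of Cd24a ranged from -0.05 to 0.51 on the log2 scale.

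**Figure D3:**
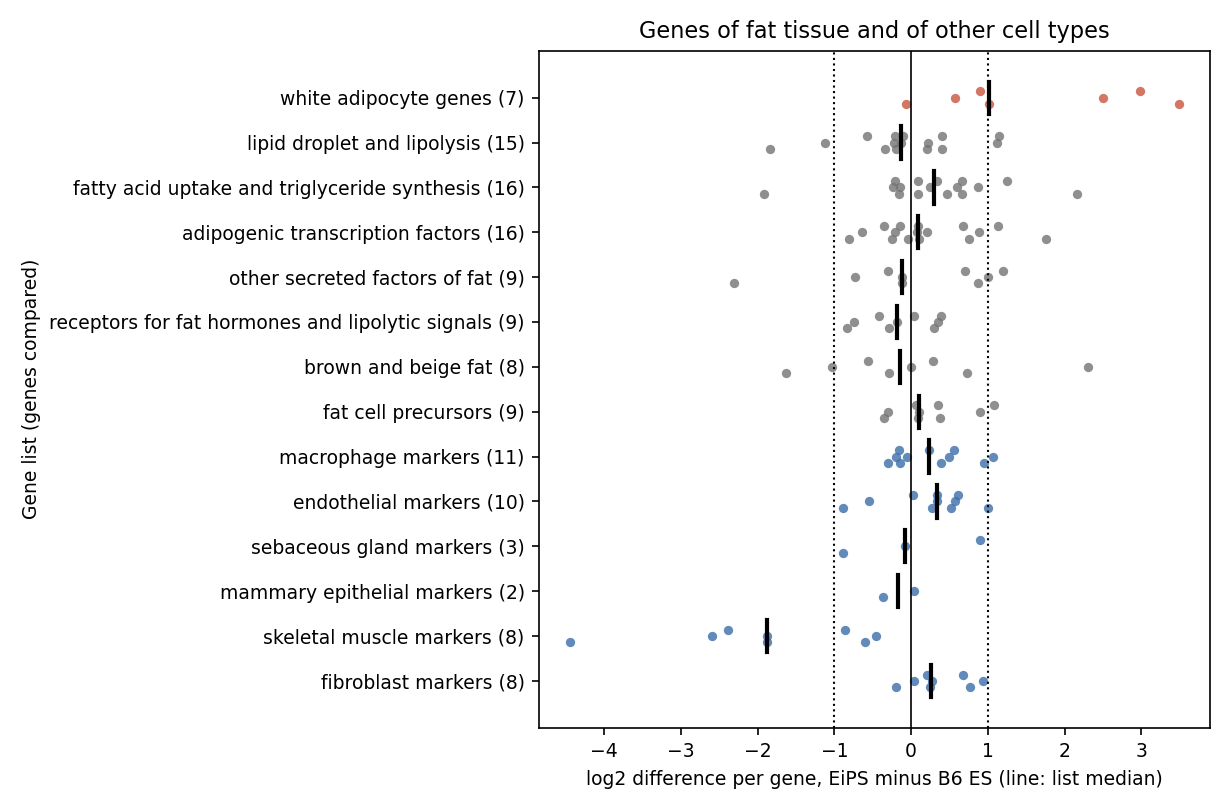
Difference in log2 signal per gene (EiPS minus B6 ES; brightest probe set) for the white adipocyte genes (red), other lists of fat tissue (grey) and markers of other cell types (blue), with the number of genes compared in parentheses and a black line at each median; dotted lines mark 2-fold. The medians of the other fat lists lie between -0.19 and 0.29 and that of skeletal muscle is -1.88; of the 7 red points, 4 (Adipoq, Retn, Pparg and Cidec) are bounds that could only be positive, so their median is not comparable with those of the other lists.

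Several of these genes are also active in other cell types, and markers of those cells are described here. Over all genes compared, 56.2% were higher in the EiPS tumours by any amount, with a median of 0.07. Of 11 macrophage markers, 6 were higher and 5 lower in the EiPS tumours (median 0.24), the lower ones by -0.05 to -0.30 on the log2 scale. The summed signal over 12 genes was 13822 in the B6 ES and 19607 in the EiPS tumours. Lyz2 was the largest part of both sums, with 4103 and 7924. Cd68 was 2.09-fold and Lyz2 1.93-fold higher, and Cd163 was under the floor in both. Of 10 endothelial markers, all above the floor on both arrays, 8 were higher and 2 lower (median 0.34), with sums of 4151 and 4628; Vwf was 2.01-fold higher and Cldn5 1.85-fold lower. The part of these cells in the values of Fabp4, Lpl and Pparg was not tested.

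All 8 skeletal muscle markers were lower in the EiPS tumours, 5 of them by 2-fold or more; the median was -1.88, with sums of 59925 and 27118. Myh4, the myosin of fast fibres, was 21.8-fold lower and Mb, myoglobin, 6.02-fold lower. Muscle is also a known site of expression of Lpl, Slc2a4, Fitm1, Plin5, Cox7a1 and Cox8b, and its part in their values was not tested. Lpl was higher in the EiPS tumours, and the other 5 were lower. Those 5 had been named because their differences were among the largest of their lists, so their shared direction is a description only. No count was made over all the list genes that muscle expresses.

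For sebaceous glands, which use Pparg and Cidea, 4 of 8 markers had a probe set, and their sums were 272 and 255. Scd3 was at least 1.85-fold lower and Mogat1 at least 1.87-fold higher in the EiPS tumours, Fa2h differed by -0.08 on the log2 scale, and Mc5r was under the floor in both. For mammary epithelium, which lies within a fat pad, 4 of 6 markers (Csn2, Csn1s1, Wap and Lalba) were under the floor on both arrays, and Csn3 and Glycam1 differed by -0.37 and 0.04, with sums over the 6 of 543 and 533. Of 8 fibroblast markers, 7 were higher and 1 lower, with a median of 0.26 and sums of 36578 and 43399; Lum was 1.91-fold and Fap 1.71-fold higher.

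The size of the differences depended on the floor for the members that were dim in the ES tumours and hardly at all for Fabp4 and Lpl, whose bright probe sets were above the floor in both. The scaling mattered less: quantile normalization, equal medians and loess scaling gave 3.38 to 3.47 for Adipoq, 2.35 to 2.48 for Retn and 2.86 to 2.999 for the brightest probe set of Fabp4. The share of all probe sets past 2-fold that were higher in the EiPS tumours was 65.6% with the deposited scaling (1085 higher and 570 lower), 50.96% after quantile normalization (795 and 765) and 52.6% with equal medians (875 and 788). The median of all probe sets moved from 0.06 to -0.07 when the medians of the arrays were set equal, a shift of over 0.1 against which a small difference has no direction of its own.

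**Figure D4:**
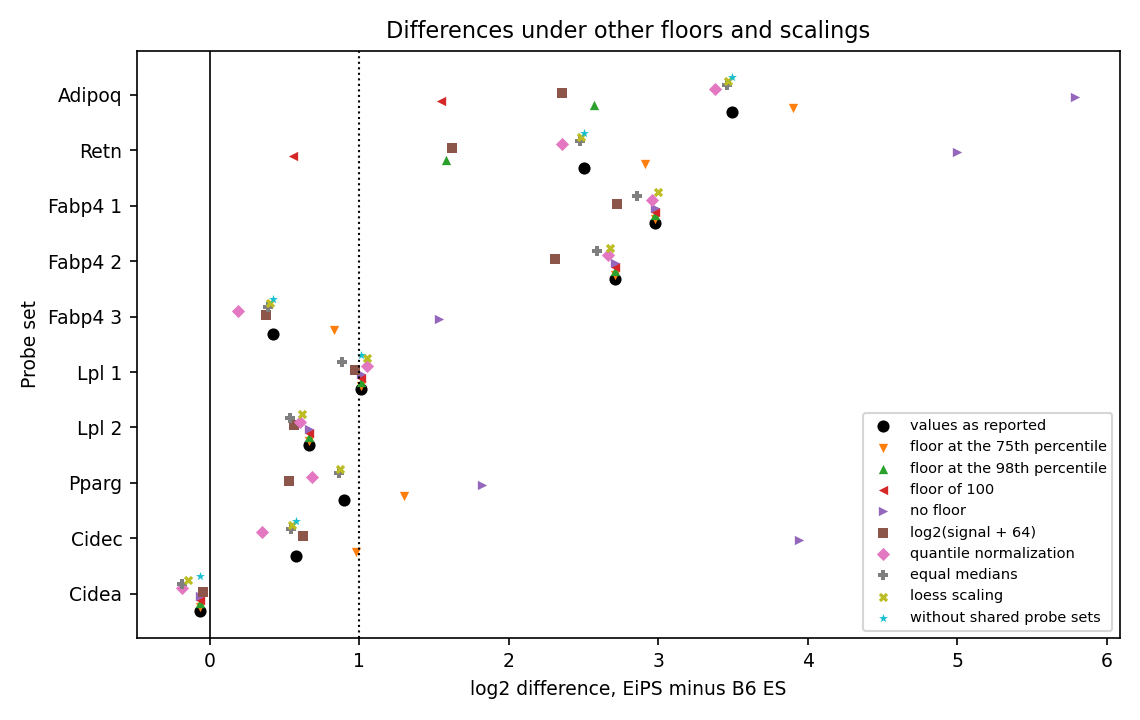
Difference in log2 signal (EiPS minus B6 ES) of each fat cell probe set as reported (black circles) and with other floors, scalings or probe set choices (coloured symbols); the dotted line marks 2-fold. Symbols of Fabp4 1, Fabp4 2 and Lpl lie close together, those of Adipoq and Retn spread with the floor, from 1.54 to 5.79 and from 0.55 to 5.00, and those of Cidea stay just under 0. A symbol is missing where a setting left the probe set out or unmeasured.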

How the data were processed

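The deposited table holds 1 intensity per probe set and array on a linear scale, which the authors made with MAS5 in Affymetrix Expression Console, per the submitters' processing notes; the version is not given in the sources used here. RNA of 2 tumours was pooled per array and labelled from 5 µg of total RNA, per the labels' protocols and the design text. The number of arrays, 1 per group, limits the precision, and no test, p-value or interval was computed.

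Of 22690 probe sets, 20380 had 1 gene symbol in the platform annotation, 691 several, 1555 none, and 64 were controls. Symbols were updated by Entrez identifier with the RefSeq table of GRCm38.p6 (20351 matched, 29 kept). Only probe sets with 1 symbol were used. A list gene took the value of its brightest probe set, by mean log2 signal. The floor was the 90th percentile of 71 receptor probe sets. MAS5 subtracts mismatch signal, so low values are noisy, and its scaling shows relative amounts only.

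The members and lists were chosen with earlier results of these data known. All probe sets of the members are named. In each fat list up to 4 genes with the largest absolute difference are named with the largest in the other direction, and in each marker list up to 2. No gene is named for a like pattern, since 2 arrays give 1 difference per gene. Alternatives were other floors, quantile normalization, loess scaling (span 0.4), equal medians, log2(signal + 64), probe sets averaged, and no probe sets shared by several transcripts. Promoter windows came from RefSeq. The steps were checked on simulated data. Python 3.11.15, numpy 2.4.6, pandas 2.3.3 and statsmodels 0.14.6 were used.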

Additional observations from a re-analysis of the deposited data

How the results depend on the processing

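No paired analysis was possible because each group has 1 array. A change was counted where a value moved by more than the noise between probe sets of 1 gene (0.40 on the log2 scale), or a count by more than 1.5 times. Of the member probe sets, 5 of 10 were higher by 2-fold or more. The count was 9 of 12 with no floor and 3 of 6 without probe sets shared by several transcripts, which leaves out the 2 bright probe sets of Fabp4, and 4 to 6 under the other 7 settings. The count of member genes, 4 as reported, was 3 to 6. The median over member probe sets (0.95) and that over member genes (1.01) were both 1.58 with the floor at the 98th percentile, where fewer members were measured, and 2.26 and 2.40 with no floor. Over all 17519 probe sets compared, 1085 were higher and 570 lower by 2-fold or more. With a floor of 100 the counts were 468 and 357 of 13558, and with no floor 2310 and 1319 of 20380. Without shared probe sets they were 787 and 416 of 11822, and with log2(signal + 64) 408 and 256 of 17519. The median of the other secreted factors of fat (-0.12) turned to 0.29 under the floor at the 98th percentile and to 0.70 under a floor of 100. That of brown and beige fat (-0.15) was 0.28 without shared probe sets, and that of skeletal muscle (-1.88) was -1.19 with probe sets averaged. The causes were not tested where none is given. No member probe set above the floor on both arrays changed sign under any of these settings. The other 5 of the 10 passed the floor through the EiPS tumours alone and could not have been lower there. Their sign is therefore no result, and the member counts and medians are a description only.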
